A study of Bos taurus and Bubalus bubalis with 9 samples.

Results

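Circular RNAs (circRNAs) that arise from 90 genes of chromatin regulators were described in longissimus dorsi muscle of both buffalo and cattle and in back subcutaneous fat of cattle. A host was taken by its symbol in the 2 deposited circRNA tables. The symbols begin with KMT, KDM, SETD, EHMT, SMARC, CHD and a digit, ARID, BRD, BRWD, BAZ, HDAC, KAT and a digit, ASXL, NSD, TET, DNMT, PHF or EZH, or are EP300, EP400, CREBBP, SUZ12 or ASH1L. SMARCA5, with 9 table entries, was left out by the rule. No sterol enzyme gene NSDHL was listed, so every host taken by a prefix belongs to a chromatin family by name. These hosts have 684 of the 29236 circRNA entries, 264 of 10701 in the buffalo table and 420 of 18535 in the cattle table, which make 554 distinct back-splice junctions. Among all 5613 hosts of the tables they are 90, with 88 in the cattle table, 69 in the buffalo table and 67 in both. In the buffalo table, 121 of the 264 entries had reads in muscle, and the other 143 had none there. BRD8, a subunit of an acetyltransferase complex, and SMARCE1, a SWI/SNF subunit, had no read in the libraries used.

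The libraries came from Xinyang buffalo and Nanyang cattle, 3 animals a species, all sampled at an age of 30 months. Castration was at 6 months, and a fattening diet began at 18 months. The labels call buffalo muscle low in intramuscular fat (IMF) and cattle muscle high in it, and the study asked which genes go with this difference. Each of the 3 groups (muscle of buffalo, muscle of cattle, adipose tissue of cattle) had 3 libraries, and the same 3 cattle gave both cattle tissues. Each species was kept on a farm of its own, so species and farm cannot be told apart, and reads of both were aligned to the cattle genome. Libraries followed the TruSeq RNA LT kit v2, whose standard protocol enriches polyadenylated RNA and does not mark strand.

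A circRNA forms when a downstream splice donor joins an upstream acceptor, which leaves a closed ring without a poly(A) tail that is recognised by reads across the back-splice junction. Chromatin regulators write, erase or read marks on histones and DNA or move nucleosomes, and they set which genes a muscle or fat cell can use. Many of their genes are long and have many exons, and a circRNA level says nothing by itself about the protein. In bulk tissue, fewer cells of a type and less RNA per cell cannot be told apart.

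Values are RPM, the reads of a junction scaled to a fixed number of reads of its library, and every value was a whole number of reads. A junction is a single point, so its RPM has no term for length and was compared between hosts as it stands, and a host's level is the sum over its junctions. Depth was low. Buffalo muscle libraries held 4472 to 6122 junction reads of all hosts, cattle muscle 15440 to 27141 and cattle adipose 12042 to 21053, and between 35.6% and 76.6% of the chromatin regulator circRNAs seen in a library rested on a single read. The tissue labels were checked with 11 muscle and 11 adipocyte markers as circRNA hosts. The muscle markers summed to 11.7 to 13.6 RPM in buffalo muscle, 24.1 to 33.2 RPM in cattle muscle and at most 0.0269 RPM in adipose tissue, although TTN, DMD, TRDN and CACNA1S were at 0 in both muscles. The adipocyte markers summed to 1.55 to 2.02 RPM in adipose tissue, 0.0840 to 0.284 RPM in cattle muscle and 0.0152 to 0.0333 RPM in buffalo muscle, with ADIPOQ, LEP, CIDEC and LIPE at 0 in adipose tissue.

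A single circRNA of ARID1A, the DNA-binding subunit of the SWI/SNF remodelling complex, was the most abundant in every group. It is exonic and spans 3490 bp at chr2:127039209-127042698 (UMD3.1), and it was the only ARID1A junction in either table. Its level was 0.106, 0.157 and 0.200 RPM in the 3 buffalo muscle libraries, 1.46, 2.74 and 1.57 RPM in cattle muscle and 1.66, 1.77 and 1.39 RPM in cattle adipose tissue. All cattle libraries lay above all buffalo libraries, and the cattle tissues overlapped. In muscle, all cattle libraries lay above all buffalo libraries for 23 of the 34 chromatin regulator hosts with enough reads to test and for 70.2% of the 1370 hosts of any kind, so this order was general. It held 10.7% of the chromatin regulator junction reads in buffalo muscle, 17.2% in the muscle of cattle and 15.01% in their adipose tissue. Among circRNAs of all hosts, its mean ranked 46 in buffalo muscle, 17 in the muscle of cattle and 8 in their adipose tissue.

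BRWD1, a bromodomain and WD repeat reader of acetylated histones, came next and was spread over many junctions. Its host level was 0.0608, 0.173 and 0.133 RPM in buffalo muscle, 1.11, 1.59 and 0.812 RPM in cattle muscle and 1.17, 1.42 and 1.00 RPM in cattle adipose tissue. The 2 cattle tissues overlapped again. EHMT1, the methyltransferase that with its partner EHMT2 places the repressive methyl mark on lysine of histone H3, stood at 0.0760, 0.0785 and 0.0833 RPM in buffalo muscle, at 0.529, 1.37 and 0.868 RPM in cattle muscle and at 0.271, 0.726 and 0.438 RPM in cattle adipose tissue. The buffalo libraries were close together, and the cattle tissues overlapped through the lowest muscle and the highest adipose library. ASH1L, a methyltransferase that counters Polycomb silencing, had 0.101 ± 0.0653 RPM in buffalo muscle, 0.575 ± 0.0677 RPM in cattle muscle and 0.642 ± 0.361 RPM in cattle adipose tissue (SD, n = 3).

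BAZ2B, a bromodomain protein of ISWI remodelling complexes, had 2 reads in all in the buffalo libraries. Its level was 0.0152, 0.0157 and 0 RPM there, and it was 0.397, 0.426 and 0.672 RPM in cattle muscle and 0.461, 0.699 and 0.541 RPM in cattle adipose tissue. HDAC9, a class IIa deacetylase that binds MEF2 factors in muscle, had no read in any buffalo muscle library, 0.317, 0.450 and 0.392 RPM in cattle muscle and 0.136, 0.457 and 0.0772 RPM in cattle adipose tissue. CHD9, a helicase of the CHD family, likewise had no read in buffalo muscle, against 0.0794, 0.331 and 0.308 RPM in cattle muscle and 0.109, 0.323 and 0.566 RPM in cattle adipose tissue. For each of these 3 hosts the cattle tissues overlapped, while in muscle the species stood apart by RPM, as they did for most hosts.

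The other hosts among the 12 highest were CHD2, ARID1B, KMT2C, KDM1A and SMARCC1. CHD2, another CHD remodeller, had 0.344, 0.497 and 0.532 RPM in cattle muscle and 0.109, 0.538 and 0.489 RPM in adipose tissue. ARID1B, the alternative to ARID1A in SWI/SNF, had 0.456 ± 0.166 RPM in cattle muscle and 0.214 ± 0.141 RPM in adipose tissue. KMT2C, a methyltransferase of enhancer histones, had 0.291 ± 0.161 and 0.327 ± 0.0975 RPM, and KDM1A, the lysine demethylase also called LSD1, had 0.353 ± 0.0226 and 0.284 ± 0.109 RPM (SD, n = 3 per tissue). In each of these 4 hosts the libraries of the tissues overlapped. SMARCC1, a core SWI/SNF subunit, had 0.0697 ± 0.0316 RPM in cattle muscle and 0.449 ± 0.248 RPM in cattle adipose tissue.

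**Figure D1:**
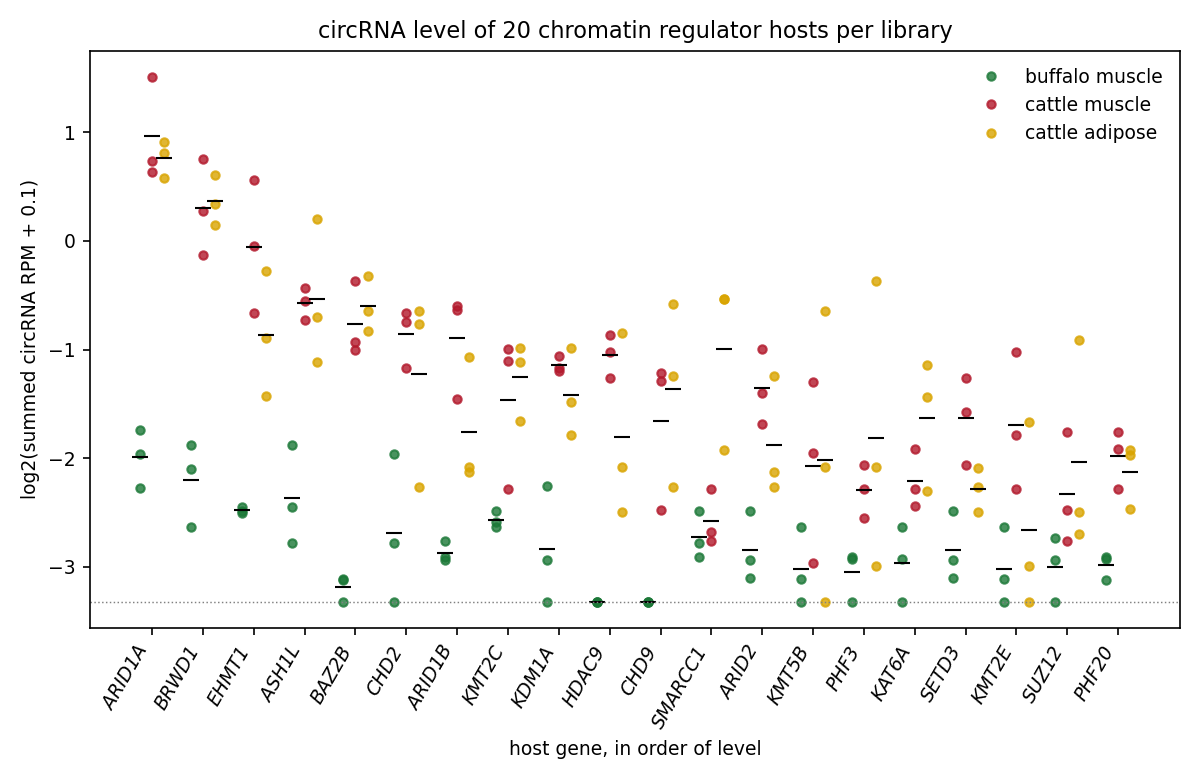
Summed circRNA level of the 20 highest chromatin regulator hosts (y axis, log2 of RPM + 0.1; x axis, host genes in order of level). Each point is 1 library, the black bars are group means (n = 3), and the dotted line marks 0 RPM. Buffalo muscle lies below both cattle tissues for ARID1A at 0.106 to 0.200 RPM, and HDAC9 and CHD9 lie on the line in all 3 buffalo libraries.

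Below these 12, the other 78 hosts had 64 reads at most over the 9 libraries. Of them, 20 had over 20 reads, 20 had 6 to 20 reads, 36 had 1 to 5 reads and BRD8 and SMARCE1 had none. Their highest group means were 0.0419 RPM for ARID2 and for SETD3 in buffalo muscle, 0.298 RPM for ARID2 in cattle muscle and 0.278 RPM for PHF3, a PHD finger protein, in cattle adipose tissue. The PHF3 mean rests on 1 library, since the adipose values were 0.136, 0.672 and 0.0257 RPM. Of the 90 hosts, 11 had reads in all 9 libraries, namely ARID1A, BRWD1, EHMT1, ASH1L, ARID1B, KMT2C, SMARCC1, ARID2, SETD3, PHF20 and NSD1, and 25 had reads in all 6 cattle libraries. Among single circRNAs, reads in all 3 animals were found for 4 of 121 circRNAs in buffalo muscle (3.31%, against 8.32% of all circRNAs seen there), 37 of 272 in cattle muscle (13.6%, against 12.2%) and 27 of 262 in cattle adipose tissue (10.3%, against 10.1%).

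Grouped by role, methyltransferases (16 hosts) and SWI/SNF and related SMARC proteins (13 hosts) gave the most reads. The methyltransferases are of histones except for SETD3, which acts on actin. SUZ12, a subunit of the Polycomb methyltransferase complex, was counted with them. The methyltransferases held 33.3% of the chromatin regulator junction reads in buffalo muscle, 27.3% in the muscle of cattle and 23.1% in their adipose tissue. In the same order, the SWI/SNF hosts held 21.9%, 25.8% and 24.5%. Bromodomain and PHD finger readers (15 hosts, led by BRWD1) held 15.9%, 15.9% and 17.5%, and the CHD, BAZ and EP400 remodellers (14 hosts, led by BAZ2B) held 11.1%, 13.6% and 16.5%. Histone demethylases (13 hosts, led by KDM1A) and acetyltransferases (6 hosts, led by KAT6A) each held between 4.32% and 7.78%.

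The histone deacetylases, enzymes that remove acetyl groups, were nearly without reads in buffalo muscle. Their 5 hosts had 0, 1 and 0 reads in the buffalo muscle libraries, 16, 30 and 20 reads in cattle muscle and 5, 21 and 6 reads in cattle adipose tissue. As a share of each library's junction reads this was at most 1.63 per 10000 in buffalo muscle, 9.13 to 11.1 per 10000 in cattle muscle and 4.15 to 9.97 per 10000 in cattle adipose tissue. By share the muscles of the species did not overlap in this sum over 5 hosts. Of all single hosts tested, 26.0% stood apart with cattle higher, and a sum over hosts is not the same measure. Cattle adipose overlapped cattle muscle. HDAC9 gave 45 and HDAC4 20 of the cattle muscle reads, and HDAC8 the other 1. HDAC9 and HDAC4 had no buffalo muscle read and had enough reads to test through the cattle libraries alone. The small groups had little. The 4 DNA methylation hosts, led by the dioxygenase TET2, held at most 2.22% of the chromatin regulator reads of a group, the other 3 ARID hosts, led by ARID4B, at most 2.40%, and ASXL3, a Polycomb deubiquitinase cofactor, had 3 reads, all in 1 adipose library.

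The chromatin regulator hosts together took a larger share of the junction reads in cattle adipose tissue than in cattle muscle, while their summed RPM overlapped. The share was 2.57%, 2.57% and 2.51% in the adipose libraries and 2.16%, 2.13% and 1.85% in the cattle muscle libraries, and the tissues did not overlap. In buffalo muscle it was 1.303%, 2.16% and 1.54%, with 95% exact intervals of 1.02% to 1.65%, 1.81% to 2.55% and 1.20% to 1.95%. Their summed level was 8.39, 14.5 and 9.17 RPM in adipose tissue, 8.81, 13.7 and 11.4 RPM in cattle muscle and 1.05, 2.07 and 1.15 RPM in buffalo muscle. The 10 highest circRNAs of a library, of any host, held 14.9% to 16.3% of junction reads in cattle muscle and 4.78% to 5.97% in adipose tissue, where those of libraries 1 and 3 include the ARID1A circRNA. Without the 10 highest circRNAs of other hosts, the share was 2.65% to 2.73% in adipose tissue, 2.19% to 2.58% in cattle muscle and 1.60% to 2.66% in buffalo muscle. When the 10 highest of any host were left out, the cattle tissues overlapped at 2.16% to 2.73% and 2.19% to 2.58%. No test was made of this sum.

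**Figure D2:**
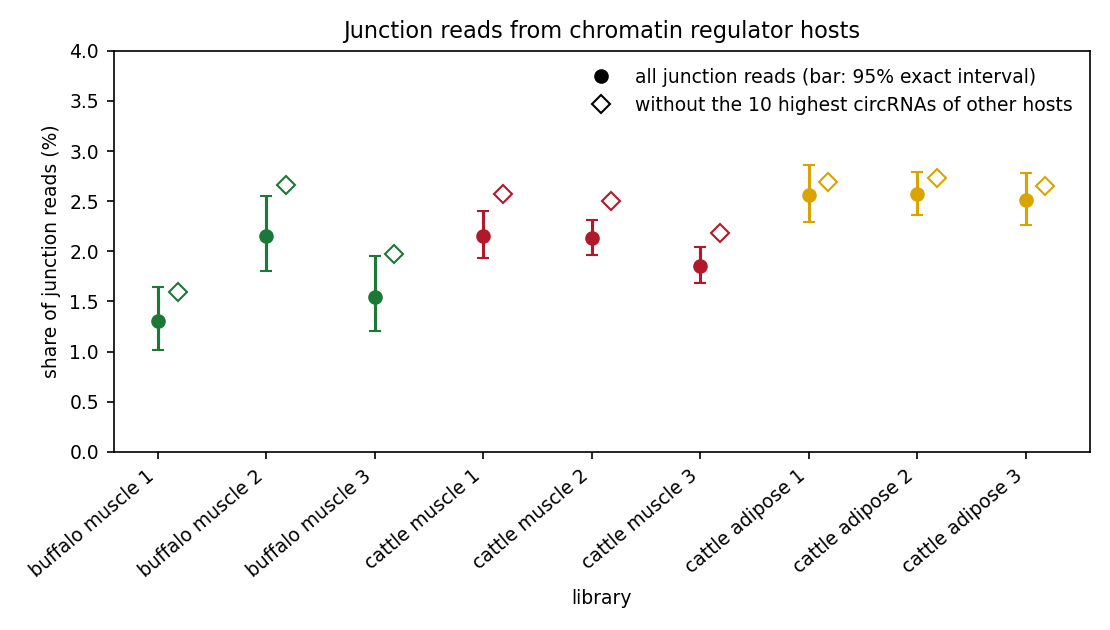
Share of each library's junction reads that came from chromatin regulator hosts (y axis, percent; x axis, libraries). Filled points are shares of all junction reads with 95% exact binomial intervals, which cover counting error only, and open diamonds are shares without the 10 highest circRNAs of other hosts. The adipose libraries sit between 2.51% and 2.57% and the cattle muscle libraries between 1.85% and 2.16%.

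The 2 cattle tissues were compared to find chromatin regulator circRNAs that differ between the lean and the fat compartment of an animal. SMARCC1 was the only host to pass the test, and it was higher in adipose tissue. Its values were 0.106, 0.0473 and 0.0560 RPM in cattle muscle and 0.163, 0.591 and 0.592 RPM in cattle adipose tissue, from 8 and 51 reads. The lowest adipose library, at 0.163 RPM, was close to the highest muscle one, at 0.106 RPM. The difference, muscle minus adipose, was -1.58 ± 0.49 (SE) on the log2(RPM + 0.1) scale, with an adjusted p of 0.0291 by limma over 1913 hosts. The call was lost without cattle muscle 2 (adjusted p = 0.128), cattle muscle 3 (0.151), cattle adipose 2 (0.115) or cattle adipose 3 (0.177), and also with a pseudocount of 0.02 (0.0620) or without the filter on low counts (0.0554). Over all alternatives the adjusted p ran from 0.00523 to 0.177, and the difference stayed negative.

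Of the 90 hosts, 40 had at least 2 reads in at least 3 of the 6 cattle libraries and were tested. None of the 40 was called higher in muscle and 1 was called higher in adipose tissue, whereas 5.8% and 1.83% of all hosts tested were called in these directions (7.63% in either). With edgeR without and with TMM and with DESeq2 on the recovered reads, also none was called higher in muscle, against 4.97%, 6.64% and 4.86% of all hosts, and by limma 1 of the 40, SMARCC1 itself, had an unadjusted p under 0.05, against 340 of all 1913. The median difference was -0.03 over the 40 hosts and 0.03 over all 1913. The rest of the 40 did not pass, and those with the largest differences were KMT2E at 0.96 (adjusted p = 0.302), SETDB2 at 0.95 (0.293), HDAC4 at 0.92 (0.301), ARID1B at 0.86 (0.350) and EHMT1 at 0.81 (0.387). KMT2E and SETDB2 are methyltransferase family members and HDAC4 is a class IIa deacetylase. HDAC4 had 0.106, 0.237 and 0.168 RPM in cattle muscle and 0, 0.0806 and 0.0515 RPM in adipose tissue, values that rest on 20 and 5 reads. Among the most abundant hosts, differences were near 0 for ARID1A (0.20 ± 0.47), BRWD1 (-0.07 ± 0.47) and ASH1L (-0.03 ± 0.48; SE, limma). With errors this wide they cannot be read as unchanged. EHMT1, which ranks above ASH1L by level, had the larger difference of 0.81 given above.

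**Figure D3:**
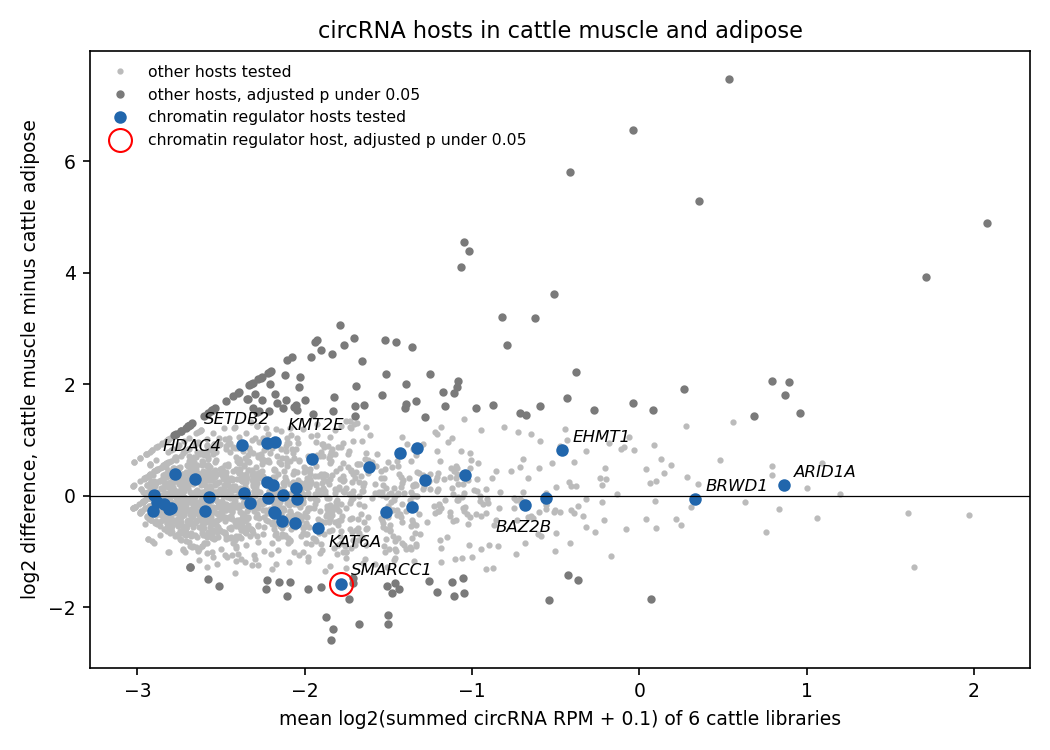
Difference between cattle muscle and cattle adipose tissue (y axis, log2 difference of RPM + 0.1, muscle minus adipose) against mean level (x axis, mean log2 of RPM + 0.1 over 6 libraries) for 1913 hosts tested. Blue points are the 40 chromatin regulator hosts, grey points are other hosts, and the red ring marks SMARCC1 at -1.58, the only blue point with an adjusted p under 0.05.

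Single junctions had fewer reads than hosts. Of the chromatin regulator circRNAs, 49 could be tested among 1917, and none passed, whereas 4.8% of all circRNAs tested did (4.49% higher in muscle and 0.313% higher in adipose tissue). Of the 49, 4 had an unadjusted p under 0.05, and of all 1917 it was 383. Other tools gave 1 call with edgeR without TMM (5.89% of all circRNAs tested), 3 with edgeR and TMM (8.5%) and none with DESeq2 (5.58%). The 3 that came nearest belong to EHMT1, BRWD1 and SMARCC1.

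The EHMT1 circRNA at chr11:105459764-105466847 had 0.0794, 0.213 and 0.168 RPM in cattle muscle and no read in adipose tissue, which makes it at least 5.77-fold higher in muscle against a floor of 3 reads over the 3 adipose libraries. Its adjusted p was 0.0570 by limma. The BRWD1 circRNA at chr1:140775916-140790808 had 0.132, 0.166 and 0.0560 RPM in muscle and no read in adipose tissue, at least 4.44-fold higher, with an adjusted p of 0.0708 by limma. Both folds take the muscle mean as exact, so its own counting error is not covered. With no adipose read, these circRNAs could enter the test only as higher in muscle. The SMARCC1 circRNA at chr22:52570950-52572542 had 0.106, 0.0473 and 0.0280 RPM in muscle and 0.109, 0.538 and 0.566 RPM in adipose tissue, with a difference of -1.50 ± 0.50 (SE) and an adjusted p of 0.0711 by limma. It carries 46 of the 51 SMARCC1 reads in adipose tissue, so the host result above rests mainly on this junction, which did not pass by itself.

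Adipose library 2 often gave the highest RPM of the adipose group. It was highest for 17 of the 28 hosts with enough reads (60.7%), and for 58.9% of all hosts. By share of junction reads it was highest for 35.7% of the 28. SUZ12, a core subunit of the Polycomb methyltransferase complex, had 0.0543, 0.430 and 0.0772 RPM in adipose tissue and 0.0794, 0.0473 and 0.196 RPM in muscle. KMT5B, which methylates histone H4, had 0.136, 0.538 and 0 RPM in adipose tissue. In each the high mean comes from adipose library 2, and neither host passed the test (adjusted p = 0.807 for SUZ12 and 0.971 for KMT5B, limma). KAT6A, an acetyltransferase of the MYST family, had 0.353, 0.269 and 0.103 RPM in adipose tissue and 0.106, 0.166 and 0.0840 RPM in muscle, and with its difference of -0.58 ± 0.49 (SE) it did not pass either (adjusted p = 0.589).

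The share of a host's reads that fell on its leading junction covered a wide range. Over the 30 hosts with at least 10 reads in cattle muscle, it ran from 20% for HDAC9 to 100% for ARID1A and KAT6A, with a median of 55.6%. In cattle, BRWD1 had 43 junctions, CHD2 26, ARID1B 21, KMT2C 17 and EHMT1 14, the most of the 90 hosts. Chromatin regulator hosts had 4.77 entries each in the cattle table and 3.83 in the buffalo table, against 3.59 and 2.91 for all hosts. The 43 BRWD1 junctions use 20 start and 14 end positions within chr1:140754204-140844369, and 15 of them rest on a single read. The end at position 140844369 is shared by 10 of them, which together hold 31.5% of the 273 BRWD1 reads of cattle. In EHMT1, on the minus strand, 8 of 14 junctions share the upstream end at position 105480791 of chromosome 11 and hold 65.0% of the 163 reads. ARID1B joins 5 junctions at position 95144221 of chromosome 9 with 37.7% of its 77 reads.

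Spans differed widely among the members. The shortest in the cattle table was an exonic circRNA of ARID4B with 108 bp (chr28:8009321-8009428), and the longest an exon and intron circRNA of ARID1B with 261947 bp (chr9:94882275-95144221). The median span was 11956 bp in the cattle table and 12470 bp in the buffalo table, against 10100 and 11704 bp over all circRNAs. The tables class 87.4% of the chromatin regulator circRNAs of cattle as exonic, 10.5% as exon and intron and 2.14% as intronic, against 87.5%, 7.77% and 2.86% over all. In the buffalo table the exon and intron class held 15.5%, against 7.83% over all.

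In most hosts the leading junction was the same in cattle muscle and adipose tissue. This held for 17 of the 26 hosts with at least 10 reads in each tissue (65.4%), and for 63.2% of the 876 hosts of any kind with as many reads. BAZ2B had 1 leading junction, chr2:37020517-37026252, with 51 of its 57 muscle reads (89.5%) and 48 of its 64 adipose reads. In KDM1A the junction chr2:130397187-130404270 held 36 of 41 reads in muscle (87.8%) and 14 of 32 in adipose tissue (43.8%). The 9 hosts whose leading junction differed were BRWD1, ARID1B, KMT2C, HDAC9, PHF20, CHD1, ARID4B, BRWD3 and CHD6. HDAC9 was the plainest of these by counts. Its 45 muscle reads were spread over 11 junctions, with 9 reads on chr4:27228120-27265819, whereas 17 of its 25 adipose reads (68.0%) fell on chr4:27222583-27265819. Most of those adipose reads came from 1 library, so the use of HDAC9 junctions was not compared by a test.

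**Figure D4:**
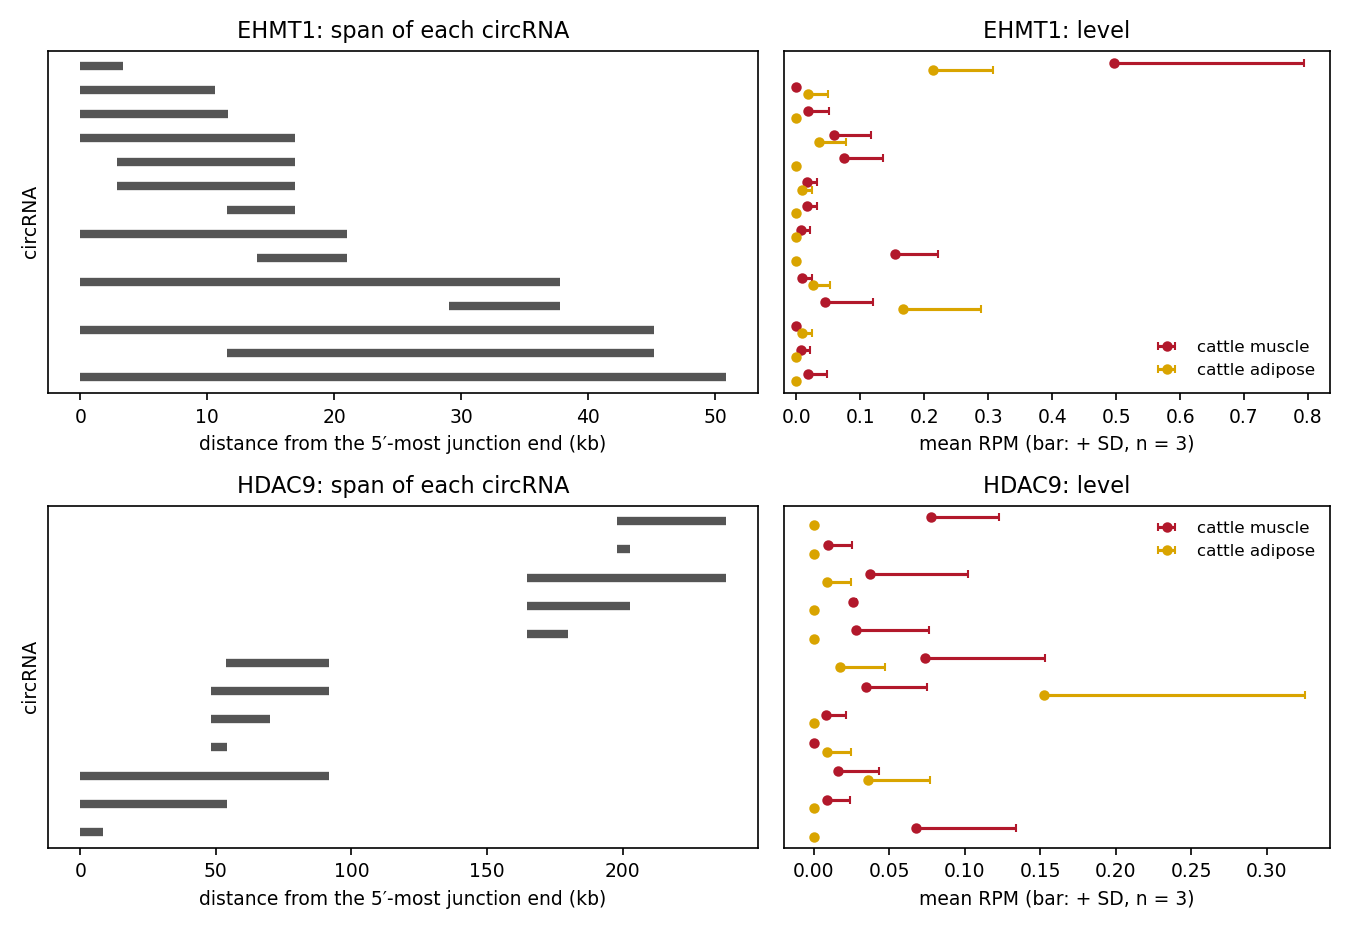
Junctions of EHMT1 and HDAC9 in cattle. Left panels show the span of each circRNA (x axis, kb from the 5′-most junction end, 1 line for each circRNA) and right panels its level on the same line (x axis, mean RPM with 1 SD to the right, n = 3) in muscle and adipose tissue. The short 5′ circRNA of EHMT1 leads in both tissues, with 0.497 RPM in muscle and 0.213 RPM in adipose tissue, while HDAC9 reads are spread over 11 junctions in muscle and mostly on 1 in adipose tissue.

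Buffalo and cattle muscle were compared because the muscles differ in IMF. In deposited RPM, 24 of the 34 hosts tested were lower in buffalo and none was higher, and this is how circRNAs behaved in general, since 71.1% of all 1370 hosts tested were called lower in buffalo and 0.73% higher. Among the 24, ARID4B, BAZ2B, CHD1, CHD9, HDAC4 and HDAC9 had enough reads through cattle libraries alone. These could be called only as lower in buffalo. The median difference was -0.98 over the 34 hosts and -1.04 over all on the log2(RPM + 0.1) scale. ARID1A differed by -2.95 ± 0.34 (SE, adjusted p = 0.000123, limma), BRWD1 by -2.50 (adjusted p = 0.000285), EHMT1 by -2.43 (0.000388) and BAZ2B by -2.41 (0.000182). The added 0.1 RPM understates the difference of hosts with few reads, so these values do not rank the hosts. Buffalo libraries were larger (60015000 to 65777200 reads, as the RPM step gives them, against 35712300 to 42265500 for cattle muscle) and yet held fewer junction reads. What the alignment of buffalo reads to the cattle genome adds to this was not tested.

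The same hosts were therefore also compared per 10000 junction reads of a library. Fewer hosts of any kind were then called lower in buffalo, while the median difference, given below, depended on the pseudocount. With a pseudocount of 2, about 1 buffalo read, 4 hosts were lower in buffalo, namely HDAC9, BAZ2B, CHD9 and HDAC4, and none was higher, whereas 19.0% of all hosts were called lower and 4.6% higher. With the pseudocount of 0.1 the count was 3, without BAZ2B (16.2% of all hosts lower), with edgeR and TMM it was 5, with ARID1A added (15.1%), and with DESeq2 only HDAC9 was called (5.26%). These 4 hosts reached at least 2 reads in cattle libraries alone, as did CHD1 and ARID4B, so they could enter the test only as lower in buffalo, and their calls describe a lack of buffalo reads. Without buffalo library 1, 2 and 3 the calls with the pseudocount of 2 were 4 of 32, 7 of 30 and 7 of 33. They included these 4 hosts each time. Of all hosts, 317 of 1288, 333 of 1267 and 309 of 1298 were then called lower. Without any 1 of the cattle muscle libraries the 4 no longer had enough reads to be tested. None of the 24, 24 and 25 hosts left without library 1, 2 and 3 was called. Of all hosts, 27 of 886, 22 of 824 and 22 of 848 were then called lower.

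HDAC9 had 6.39 to 7.77 reads per 10000 in the 3 cattle muscle libraries and none in buffalo muscle. Against a floor of 3 reads over the 3 buffalo libraries, it was at least 3.70-fold higher in cattle by share and at least 24.4-fold by RPM (adjusted p = 0.00818 by share, limma). CHD9 had 1.94, 5.16 and 5.02 per 10000 in cattle and none in buffalo, at least 2.30-fold higher by share (adjusted p = 0.0126). HDAC4 had 2.59, 3.68 and 2.74 per 10000 and none in buffalo, at least 1.64-fold higher by share (adjusted p = 0.00846). Each of these folds takes the cattle level as exact, so its own counting error is not covered. For these 3 hosts the buffalo libraries cannot tell a low level from none. BAZ2B had 9.72, 6.63 and 10.96 per 10000 in cattle and 1.89, 1.63 and 0 in buffalo. Its ratio was 7.02 with a counting interval of 1.86 to 59.4 (95%, exact) and an adjusted p of 0.0160 (limma). All 4 hosts entered the test through cattle reads alone, so these adjusted p-values add no support for a species difference. In each of the 4 hosts all cattle libraries lay above all buffalo libraries by share. This held for 6 of the 34 hosts (17.6%), with ARID1B and EHMT1 besides these 4, and for 26.0% of all hosts tested.

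The other leading hosts did not pass by share. ARID1A had 13.2, 16.3 and 26.8 per 10000 in buffalo and 35.6, 42.7 and 25.6 in cattle muscle, with a difference of -0.84 ± 0.36 (SE, adjusted p = 0.126, limma), and the species overlapped. EHMT1 had 9.44, 8.17 and 11.2 per 10000 in buffalo and 13.0, 21.4 and 14.2 in cattle muscle, without overlap. Its difference was -0.63 ± 0.36 (SE, adjusted p = 0.250, limma). ASH1L had 11.6 ± 6.16 per 10000 in buffalo and 10.8 ± 3.105 in cattle (SD, n = 3), a difference of 0.01 ± 0.44 (SE). SMARCC1 pointed the other way, with 5.66, 8.17 and 4.47 per 10000 in buffalo and 2.59, 0.737 and 0.913 in cattle muscle, groups that did not overlap. All buffalo libraries lay above all cattle libraries by share for 10.6% of all hosts tested. The SMARCC1 difference of 1.26 ± 0.48 (SE) did not pass (adjusted p = 0.0903). KMT2C, which by RPM was called lower in buffalo (0.0608, 0.0785 and 0.0667 RPM, a difference of -1.11, adjusted p = 0.0205, limma), had 7.55, 8.17 and 8.94 per 10000 in buffalo and 2.59, 6.26 and 5.94 in cattle muscle. By share its groups did not overlap, with buffalo higher, and the difference of 0.61 ± 0.42 (SE) did not pass (adjusted p = 0.344). Of the 24 hosts called lower in buffalo by RPM, 7 changed sign by share with the pseudocount of 2, namely ASH1L, KAT6A, KMT2C, NSD1, PHF20, PHF3 and SETD3, as did 16.7% of the 974 hosts of any kind called so. With the pseudocount of 0.1, 4 changed sign, namely KMT2C, NSD1, PHF20 and SETD3 (15.2% of the 974). Over the 34 hosts the median difference by share was -0.22 with the pseudocount of 2 and -0.88 with 0.1, and over all hosts tested it was -0.30 and -1.23.

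**Figure D5:**
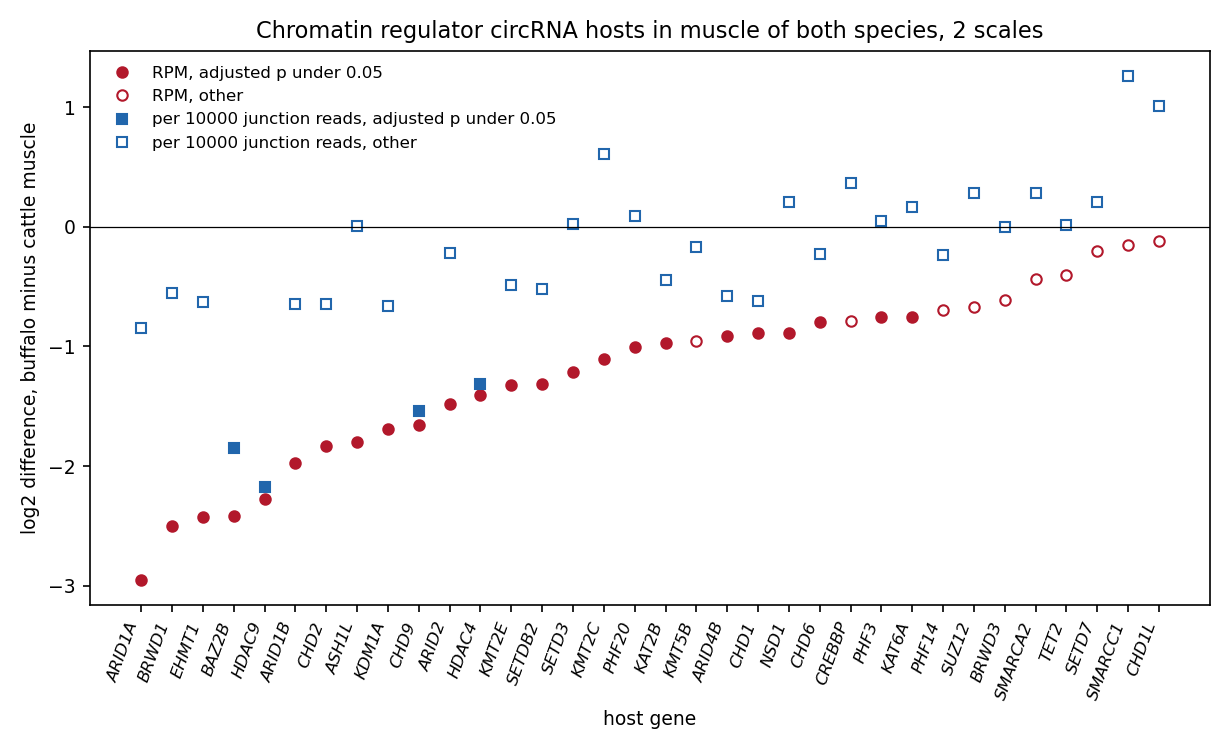
Difference between buffalo and cattle muscle (y axis, log2 difference, buffalo minus cattle) for the 34 chromatin regulator hosts tested (x axis). Red circles are on log2(RPM + 0.1), blue squares on log2(reads per 10000 junction reads + 2), and filled symbols have an adjusted p under 0.05. By RPM 24 hosts are filled, and by share only BAZ2B, HDAC9, CHD9 and HDAC4.

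Many buffalo junctions were also found in cattle at the same coordinates. Of the 121 chromatin regulator circRNAs with reads in buffalo muscle and the 272 in cattle muscle, 64 had identical ends, which is 52.9% of the buffalo and 23.5% of the cattle set (47.1% and 18.6% over all circRNAs). Allowing 5 bp at both ends changed nothing for these hosts. Of the 64, 46 also had reads in cattle adipose tissue. At the level of hosts, 48 of the 49 with reads in buffalo muscle also had reads in cattle muscle, where 73 had some. Of all hosts with reads in buffalo muscle, 82.8% had reads in cattle muscle, which holds more junction reads. The exception among the 49 was EZH1, a Polycomb methyltransferase, with 2 buffalo reads.

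The highest shared junctions, after ARID1A, were those of ASH1L at chr3:15227943-15246008, EHMT1 at chr11:105477447-105480791, SMARCC1 at chr22:52570950-52572542, KDM1A at chr2:130397187-130404270, BRWD1 at chr1:140835723-140844369 and chr1:140825412-140841606, and ARID2 at chr5:34505891-34509755. The ASH1L junction had 0.0304, 0.110 and 0.0667 RPM in buffalo muscle and 0.397, 0.284 and 0.392 RPM in cattle muscle. SMARCC1 had 0.0456, 0.0785 and 0.0333 RPM on this junction in buffalo muscle and 0.106, 0.0473 and 0.0280 RPM in cattle muscle, and the species overlapped. The ASH1L junction held 68.4% of the host's reads in buffalo muscle and 61.2% in cattle muscle. SETD3, the methyltransferase of actin, had 0.0419 ± 0.0325 RPM on the junction chr21:66118264-66125084 in buffalo muscle and 0.223 ± 0.0892 RPM in cattle muscle. The leading BAZ2B junction of cattle had no read in buffalo muscle, where the 2 BAZ2B reads fell on other junctions.

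Levels of host mRNA were given for buffalo muscle in FPKM, a scale corrected for transcript length and library size, with no read counts behind them. All 90 hosts were listed, with a median of 12.7 FPKM against 3.07 FPKM over all transcripts. Across the 90 hosts the rank correlation of mRNA and circRNA level was 0.18 (Spearman, a description, since all points share the same 3 libraries), and it was 0.051 over the 21 hosts with at least 5 circRNA reads. SETD7, a lysine methyltransferase, had the highest mRNA, with 210, 141 and 185 FPKM and only 3 circRNA reads. BRD2, a BET bromodomain protein, followed with 80.2 ± 10.7 FPKM (SD, n = 3) and no circRNA read. ARID1A, with the most circRNA reads, had 16.8 ± 0.580 FPKM and ranked 37 among the 90. CHD9 with 16.8 ± 1.18 FPKM and HDAC4 with 5.27 ± 0.369 FPKM had mRNA in every buffalo library although no circRNA read was found. HDAC9 mRNA was uneven, at 13.0, 5.99 and 2.51 FPKM. ASXL3 was lowest, at 0.0160 FPKM.

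Other chromatin genes, outside the symbols above, were taken from a list of 84. Of these, 61 had a circRNA. Between cattle muscle and adipose tissue, 34 were tested, of which CECR2, a bromodomain partner of ISWI, was called higher in muscle (adjusted p = 1.08e-05, limma) and none higher in adipose tissue, with a median difference of 0.14. CECR2 had 0.450, 0.615 and 0.700 RPM in cattle muscle and no read in adipose tissue, at least 22.1-fold higher in muscle against a floor of 3 reads over the 3 adipose libraries. This fold takes the muscle mean as exact, and CECR2 could enter the test only as higher in muscle. By share with the pseudocount of 2, CECR2 was again higher in muscle (5.23% of all hosts), MGA was higher in adipose tissue (4.55%), and the median was -0.12. Between buffalo and cattle muscle, 22 were tested, and 16 were lower in buffalo by RPM with a median of -1.05, where 71.1% of all hosts were lower with a median of -1.04. By share with the pseudocount of 2, RBBP8 and TRIM24 were lower in buffalo, against 19.0% of all hosts. Neither had a buffalo read, so both could be called only as lower in buffalo.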

How the data were processed

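RNA sequencing values of 9 libraries were used. Per the labels and the methods of the study, the authors used Trim Galore to trim, STAR to align buffalo and cattle reads alike to UMD3.1, and derived transcript values with Cufflinks 2.2.1 and Cuffdiff. For circRNAs, the deposited unit is RPM of a back-splice junction. The caller, and which reads the scaling uses, are not given in the sources used here. Each RPM value was divided by the smallest step of its column, and 100% of values came out as whole reads within 0.01 reads. For buffalo mRNAs, the deposited unit is FPKM of a transcript, with replicates kept apart. The lncRNA table was not used, and 9 columns of the buffalo tables (3 in each) that match no sample label used here were left out. These are the columns of buffalo adipose tissue.

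RPM was summed over the junctions of each host symbol. An entry with the symbols TET1 and SNORA36 was counted under TET1, and chromatin genes under older symbols outside the rule were not taken. Hosts and circRNAs with at least 2 reads in at least 3 of the 6 libraries compared were tested with limma 3.58.1 (trend) in R 4.3.3 on log2(RPM + 0.1), with Benjamini-Hochberg adjustment over all features tested and a threshold of 0.05. The study states a pseudocount of 1 for mRNAs, and 0.1 was used here because 1 RPM exceeds most junction values. Fold changes on this scale understate those of low features. The species were also compared per 10000 junction reads with a pseudocount of 0.1, and with one of 2 that was chosen after seeing the data, as were the shares without the highest circRNAs. Alternatives were pseudocounts of 1 and 0.02, no filter, at least 5 reads, the quasi-likelihood test of edgeR 4.0.16 with and without TMM, DESeq2 1.42.0 on those reads, a block for the replicate number, and leaving out each library. The fits were tested on simulated counts. No sequences are printed. The limma p-values and SEs rest on a spread between 3 animals a group that is shared in part across all features tested. They are thus not the spread of a host alone. Between the cattle tissues the SE was 0.47 for ARID1A, BRWD1 and BAZ2B alike. P-values take the tissues of the same 3 cattle as independent. Intervals and floors of 3 counts cover counting error only. A fold against a floor takes the level of the other group as exact, so it is not a full lower bound.

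The hosts, role lists and the list of other chromatin genes were chosen with earlier results of these data known. Hosts were named by a rule: the 12 with the highest mean of the group means, the 5 highest circRNAs of a group, features past a threshold, the 5 hosts with the most entries, the 8 highest shared junctions and the leader of each role. Others were named after their values were seen. Groups of 3 are too small for a test of outlying samples. The value of 1 marker gene is not reported here.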

Additional observations from a re-analysis of the deposited data

How the results depend on the processing

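For the chromatin regulator circRNAs of cattle, the main setting called none. Calls higher in muscle were 2 with a pseudocount of 0.02, 1 with edgeR without TMM, 2 with edgeR and TMM, 2 per 10000 junction reads and 2 with the replicate number as a block (EHMT1 and BRWD1). In the same order, 139, 102, 136, 137 and 176 of all 1917 circRNAs tested were higher in muscle. Calls higher in adipose tissue were 1 each with edgeR and TMM, per 10000 junction reads with a pseudocount of 2, and with the block (SMARCC1), and 0 to 1 when a library was left out. Over all circRNAs tested these were 27, 40, 38 and 3 to 11. For hosts, the SMARCC1 call went to 0 with a pseudocount of 0.02 or no filter, and to 0 or 1 when a library was left out. Hosts lower in buffalo were 24 by RPM, 14 with at least 5 reads (of 14 then tested, where 86.6% of all hosts were lower), 5 with edgeR and TMM, 1 with DESeq2, 3 per 10000 junction reads and 4 with a pseudocount of 2, and 16 to 22 when a library was left out. The 4 by share became 1 with DESeq2 and 0 to 7 when a library was left out. Without a cattle muscle library the filter needs buffalo reads, so HDAC9, HDAC4, CHD9 and BAZ2B were then not tested. Between the species, signs turned with the scaling. ASH1L turned from -1.80 by RPM to 0.0080 by share with a pseudocount of 2. KMT2C turned to 0.16 with edgeR and TMM, 0.35 with DESeq2, 0.82 by share and 0.61 with a pseudocount of 2, and in the same order SMARCC1, which was not called by RPM, turned to 1.68, 1.89, 2.19 and 1.26. KAT6A turned to 0.26 with TMM, 0.42 with DESeq2 and 0.17 with a pseudocount of 2. By share and with a pseudocount of 2, SETD3 turned to 0.026 and 0.021 and NSD1 to 0.35 and 0.21. Of all 34 hosts, 10 changed sign with TMM, 11 with DESeq2, 6 by share and 14 with a pseudocount of 2, against 27.1%, 30.4%, 27.8% and 33.9% of all hosts tested. Between the cattle tissues, differences that were not called also turned. KMT5B was 0.23 with a pseudocount of 0.02 and 0.47 by share, and ARID1A was -0.21 by share and -0.20 with a pseudocount of 2. When a library was left out, SUZ12 ran from -0.63 to 0.26, KMT5B from -0.70 to 0.63, ARID1A from -0.077 to 0.36, BRWD1 from -0.29 to 0.15 and ASH1L from -0.32 to 0.34. The cause of these turns was not tested. Shared junctions fell from 64 to 31 with at least 2 reads. The summed level of muscle minus adipose moved from 0.10 to -0.32 (log2) by share, and that of buffalo minus cattle from -3.03 to -0.33 by share and -0.25 without the 10 highest circRNAs. The correlation of mRNA and circRNA ran from 0.117 to 0.222 without 1 library and was 0.051 over hosts with at least 5 circRNA reads. Equal replicate numbers in cattle muscle and adipose tissue deviated together only weakly (r = 0.119, 0.0976 and 0.0292 over circRNAs), although each library correlated best with its own number there, and the labels do not say that a number marks an animal. The block raised the calls over all circRNAs to 176 higher in muscle and 38 higher in adipose tissue. With the block, hosts of cattle gave the same call, where 121 of all 1913 hosts were higher in muscle and 42 higher in adipose tissue. It also gave 26 of 34 hosts lower in buffalo, where 1021 of all 1370 were, but equal numbers of the species are different animals. In the full data 71.1% of all hosts were lower by RPM and 19.0% by share with a pseudocount of 2. By RPM without buffalo library 1, 2 and 3, 18 of 32, 22 of 30 and 21 of 33 hosts were lower. Of all hosts it was 823 of 1288, 856 of 1267 and 819 of 1298. Without cattle muscle 1, 2 and 3 it was 22 of 24, 16 of 24 and 18 of 25. Of all hosts it was then 662 of 886, 530 of 824 and 544 of 848. Counts of all hosts by share without a library are given with the results. Over named hosts and circRNAs, 454 values under alternatives kept direction and side of the threshold, 59 lost the call, 13 gained one and 28 changed sign. Depth limits all of this: 36 hosts have 1 to 5 reads in all.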
